A study of Mus musculus with 8 samples.

Results

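The genes described here were 10 immediate early transcription regulators among the 23413 gene symbols counted in tumor-associated macrophages (TAMs). They were the NR4A nuclear receptors Nr4a1, Nr4a2 and Nr4a3, the EGR zinc finger factors Egr1, Egr2 and Egr3, the KLF zinc finger factors Klf2, Klf4 and Klf6, and Ier2. All 10 symbols were present. The genes were chosen by their counts in these same libraries, in which 1 of the mice given thiostrepton by intraperitoneal injection (I.P.) and both mice given it by paratumor subcutaneous injection (S.C., called IS in the labels) were already known to be high, so their levels and fold changes are given as a description and not as a test of the treatment.

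The TAMs came from 8 C57BL/6 mice with subcutaneous B16F10 tumors, a mouse melanoma line, engrafted in males aged 8 to 10 weeks by the methods. No allele or transgene is named for them. They received the vehicle DMSO (n = 2), thiostrepton, a thiopeptide antibiotic, I.P. (n = 4), or thiostrepton S.C. at 20 mg/kg (n = 2), on days 6 and 12 after engraftment. On day 18 each tumor was sorted for CD45+F4/80+CD11b+Gr-1- cells, and 1 library was sequenced per mouse. The I.P. dose of these mice, and whether the 2 DMSO mice were dosed I.P. or S.C., were not given in the sources used here. The I.P. doses of the paper's B16F10 growth experiment were above its S.C. dose. Route and dose therefore cannot be told apart in S.C. against I.P. mice.

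The libraries held 14127506 to 17577466 counts. Levels are given as CPM, counts scaled to the size of the library with edgeR's TMM factors, on which a floor of 3 counts is 0.168 to 0.217 CPM, a limit that covers counting error only. Summed macrophage markers, 12 of 13 of which were found by symbol (Adgre1 was not), lay between 12900 and 21200 CPM in all 8 mice, with no marker at 0. Of the 9325 genes that averaged 5 CPM or more (expressed genes below), 0.526% had 0 counts in S.C. mouse 1 and 0.365% in S.C. mouse 2, more than the 0.0107% to 0.129% of the remaining libraries. I.P. mouse 1 and both S.C. mice carry the 3 lowest numbers in the sample titles, so the order of the titles and the high level of these genes cannot be told apart. I.P. mouse 1 was used as labelled, and no gene was used to check which mice had received thiostrepton.

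Immediate early genes are transcribed soon after a signal reaches the cell, from factors that are already present, and their mRNAs are short-lived. In macrophages they respond to growth factors, cytokines, bacterial products, stress and handling. The signals run through MAP kinases to SRF, which binds CArG boxes, through CREB, which binds the cyclic AMP response element (CRE), and through NF-κB, which binds κB sites. The NR4A receptors act without a known natural ligand, so that the amount of their mRNA largely sets their activity.

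Promoter sequence is shown because the genes were high in the same mice, and a reader can see which of these elements the start regions share. RefSeq promoter windows (GRCm38.p6, the assembly of mm10) were found for 7 of the 10 genes, as 11 windows that run from 250 bases before to 50 bases after a transcription start. None was matched for Egr1, Egr3 and Ier2. The 250 bases before the start are given 5′ to 3′ on the gene's strand for 4 genes, with capitals for matches to TGACG (the core of the CRE, CGTCA on the other strand), to the CArG box, to the κB site and to the MEF2 site. Nr4a1 (chr15:101266596-101266845, plus strand) and Nr4a2 (chr2:57124004-57124253, minus strand) show the NR4A pattern, the third Egr2 window (chr10:67537619-67537868, plus strand) holds a CArG box, and Klf2 (chr8:72318812-72319061, plus strand) holds a MEF2 site.
Nr4a1: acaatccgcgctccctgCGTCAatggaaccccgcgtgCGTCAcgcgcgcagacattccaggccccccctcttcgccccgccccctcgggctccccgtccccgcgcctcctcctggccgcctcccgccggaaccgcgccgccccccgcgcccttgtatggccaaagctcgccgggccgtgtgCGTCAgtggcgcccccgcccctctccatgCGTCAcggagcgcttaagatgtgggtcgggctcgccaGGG
Nr4a2: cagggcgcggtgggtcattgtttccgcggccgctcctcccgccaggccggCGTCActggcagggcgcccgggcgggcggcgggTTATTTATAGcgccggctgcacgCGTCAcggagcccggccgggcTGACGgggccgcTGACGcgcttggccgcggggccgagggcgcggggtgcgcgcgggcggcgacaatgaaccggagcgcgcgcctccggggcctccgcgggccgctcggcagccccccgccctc
Egr2: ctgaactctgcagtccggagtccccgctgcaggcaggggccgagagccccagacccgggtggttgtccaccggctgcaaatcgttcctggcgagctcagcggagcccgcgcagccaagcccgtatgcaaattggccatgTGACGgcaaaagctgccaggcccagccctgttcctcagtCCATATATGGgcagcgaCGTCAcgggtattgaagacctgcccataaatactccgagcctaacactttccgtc
Klf2: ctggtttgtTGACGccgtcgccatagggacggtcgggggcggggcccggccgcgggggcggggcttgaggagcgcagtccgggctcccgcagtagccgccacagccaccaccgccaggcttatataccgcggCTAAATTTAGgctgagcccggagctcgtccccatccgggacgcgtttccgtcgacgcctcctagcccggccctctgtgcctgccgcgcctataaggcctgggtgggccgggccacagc

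The core TGACG was found in 6 of the 7 genes, all but Klf6. By window, it was in 8 of the 11, and on either strand in 20.8% of all 32851 promoter windows of the same length. Egr2 windows 3, 4 and 5 overlap and hold the same TGACG matches, so the count by window repeats them. Nr4a1, Nr4a2 and Nr4a3 each held 4 matches. The full CRE, TGACGTCA, which contains the core, was in none of the 7 genes and in 1.79% of all windows. A CArG box was found in Egr2 alone, in 4 of its 5 windows, which overlap each other in part, and in 1.63% of all windows. In the stretch of Egr2 shown, the CArG box lay 72 to 63 bases before the start, with TGACG matches on either side. A κB site, present in 8.46% of all windows, was found in Nr4a1, from 3 bases before to 7 bases after the start so that only its first bases are in the stretch shown, and in another Egr2 window. MEF2 sites, in 3.19% of all windows, lay 167 to 158 bases before the start of Nr4a2 and 118 to 109 bases before that of Klf2. The EGR site GCGNGGGCG was found in 4 of the 7 genes (Nr4a1, Nr4a2, Klf2 and Klf4), in 4 of the 11 windows and in 5.55% of all windows. CACCC, which KLF and Sp factors bind, was in 4 of 7 genes, in 7 of the 11 windows and in 57.5% of all windows. The AP-1 site TGANTCA was in none of the 7 and in 7.81% of all windows. A match is a description of letters and not evidence of binding.

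**Figure D1:**
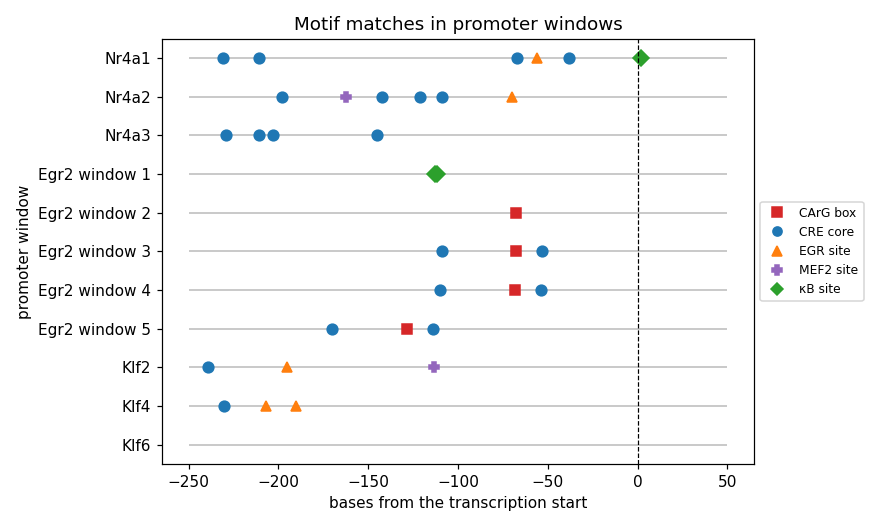
Motif matches in the 11 promoter windows of 7 genes, plotted by distance in bases from the transcription start (dashed line). Each row is 1 window and each symbol 1 match on either strand, with CACCC left out. The 3 NR4A genes each show 4 CRE core matches, and the CArG box appears in Egr2 rows only.

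Nr4a1 encodes Nur77, a nuclear receptor that myeloid cells need to form patrolling monocytes and that restrains inflammatory genes in macrophages. It lies on chromosome 15 from 101254269 to 101274795. Its level was 7.76 and 6.18 CPM in DMSO mice 1 and 2. It was 163 CPM in I.P. mouse 1 and 6.79, 4.99 and 15.7 CPM in I.P. mice 2, 3 and 4. The S.C. mice were at 257.5 and 271 CPM, from 3908 and 3756 counts. Both S.C. mice and I.P. mouse 1 stood apart from the other 5 mice, of which I.P. mouse 4 was the highest, above both DMSO mice. The 2 S.C. mice differed from each other by 1.05-fold (exact binomial 95% interval of the counts 1.01 to 1.1, which like the intervals below covers counting error only and not the spread between mice), a gap that 94.2% of genes equal or pass. The group means were 6.97 ± 1.12 CPM in DMSO (SD, n = 2), 47.7 ± 77.2 CPM by I.P. (SD, n = 4) and 264 ± 9.75 CPM by S.C. (SD, n = 2).

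The log2 fold change of Nr4a1 in S.C. against DMSO mice was 5.25 (standard error (SE) 0.36, adjusted p = 0.131 by edgeR). By unadjusted p it was rank 1 of the 11680 genes tested, and it had rank 4 by fold change among expressed genes. In I.P. against DMSO mice the log2 fold change was 2.76 (SE 1.44, adjusted p = 0.98 by edgeR). Leaving out I.P. mouse 1 gave 0.38 (SE 0.48).

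Nr4a2 encodes Nurr1, the NR4A receptor best known from dopamine neurons. It lies on chromosome 2 from 57106830 to 57124003. Its level was 1.91 and 1.56 CPM in the DMSO mice. It was 22.9 CPM in I.P. mouse 1, and 1.29, 3.36 and 5.82 CPM in the other I.P. mice. S.C. mouse 1 was at 5.14 CPM and S.C. mouse 2 at 79.3 CPM, from 78 and 1098 counts. The S.C. mice lay far apart for Nr4a2, and S.C. mouse 1 was below I.P. mouse 4. The ratio of S.C. mouse 2 to S.C. mouse 1 was 15.4 (exact binomial 95% interval 12.3 to 19.7), and 2.69% of genes had a gap between these mice at least as large. The log2 fold change in S.C. against DMSO mice was 4.60 (SE 1.31, adjusted p = 0.747 by edgeR), and 1.54 without S.C. mouse 2.

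Nr4a3, which encodes NOR-1, was near the floor. It had 3 and 1 counts in the DMSO mice, 24 counts in I.P. mouse 1 (exact Poisson 95% interval 15.4 to 35.7), 1, 2 and 0 counts in I.P. mice 2 to 4, and 2 counts in each S.C. mouse. I.P. mouse 1 was the only library above the floor. The S.C. mice thus held Nr4a1 at the highest levels of the series with Nr4a3 at or below 3 counts, which per kilobase of exon is 73.4 and 77.3 CPM for Nr4a1 against 0.022 and 0.0241 CPM for Nr4a3. Nr4a3 did not pass the filter on low counts and was not tested.

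**Figure D2:**
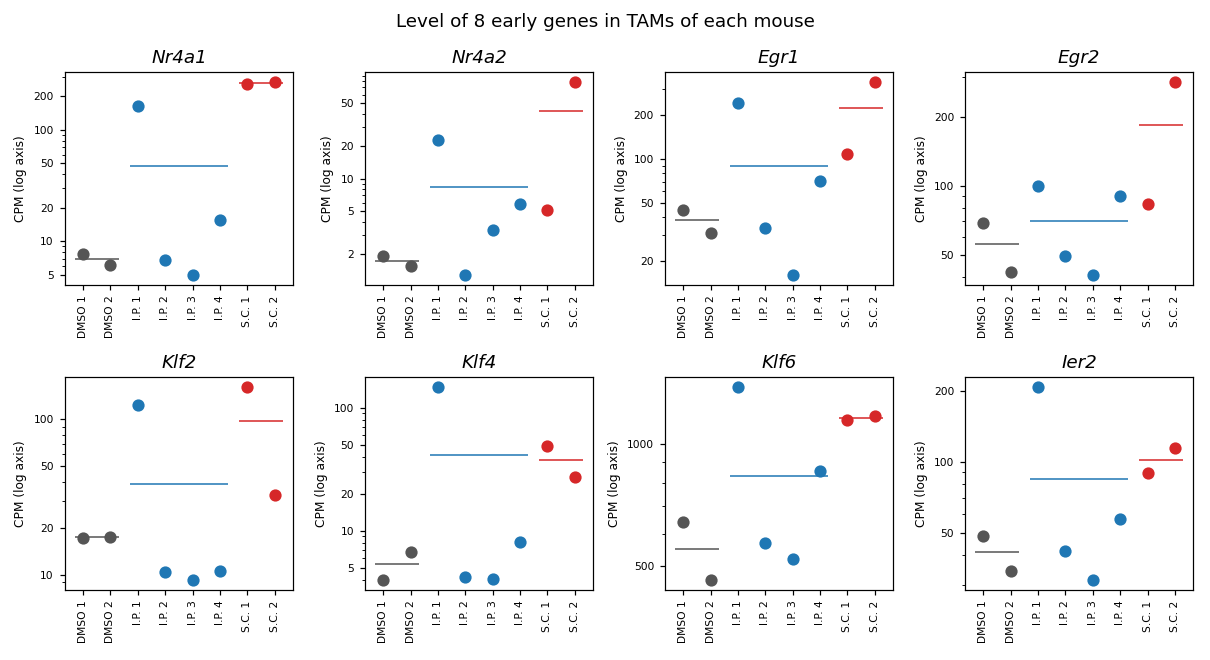
CPM on log axes of the 8 genes that passed the filter on low counts, 1 panel per gene. Each point is the library of 1 mouse (gray DMSO, blue I.P., red S.C.) and each line the mean of its group. I.P. mouse 1 is the highest I.P. mouse in all 8 panels, and both S.C. mice lie above both DMSO mice in all 8.

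The EGR factors are zinc finger proteins that growth factors and colony stimulating factors induce in myeloid precursors, where Egr1 and Egr2 favor the macrophage fate. Egr1 was at 45.0 and 31.2 CPM in the DMSO mice. It was at 241 CPM in I.P. mouse 1, and at 33.8, 16.1 and 70.3 CPM in I.P. mice 2 to 4. S.C. mice 1 and 2 were at 109 and 340 CPM. I.P. mice 2 and 3 lay among or below the DMSO mice, while I.P. mouse 4 was above both. The log2 fold change of Egr1 was 2.56 (SE 0.61, adjusted p = 0.747 by edgeR) in S.C. mice, 1.49 without S.C. mouse 2, and 1.23 (SE 0.93, adjusted p = 0.98) in I.P. mice, 0.06 without I.P. mouse 1.

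Egr2, on chromosome 10 from 67535475 to 67542188, is also a gene of alternatively activated macrophages. Its level was 69.0 and 42.1 CPM in the DMSO mice, 99.6, 49.1, 40.7 and 90.0 CPM in I.P. mice 1 to 4, and 83.0 and 286 CPM in S.C. mice 1 and 2. S.C. mouse 1 was only 1.495-fold above the DMSO mean and lay below I.P. mice 1 and 4, so the group difference rested on S.C. mouse 2. The ratio of S.C. mouse 2 to S.C. mouse 1 was 3.44 for Egr2 (exact binomial 95% interval 3.23 to 3.67) and 3.13 for Egr1 (2.96 to 3.31). For Egr2 the log2 fold change was 1.73 (SE 0.64, adjusted p = 0.873 by edgeR) in S.C. mice, 0.56 and no longer a DEG without S.C. mouse 2, and 0.32 (SE 0.40, adjusted p = 0.98) in I.P. mice.

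Egr3 had 0 and 2 counts in the DMSO mice, 1 count in I.P. mouse 1 and 0 counts in the other 5 libraries. A count of 0 allows up to 3 counts, 0.168 to 0.217 CPM, so no difference in Egr3 was detectable at this depth and it was not tested.

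Klf2, Klf4 and Klf6 are KLF factors with known and different roles in these cells. Klf2 keeps monocytes quiescent, Klf4 takes part in monocyte differentiation and in alternative activation, and Klf6 favors inflammatory gene expression in macrophages. Klf2, on chromosome 8 from 72319033 to 72321656, was at 17.4 and 17.7 CPM in the DMSO mice. It was at 124 CPM in I.P. mouse 1 and at 10.5, 9.30 and 10.7 CPM in I.P. mice 2 to 4, all 3 below both DMSO mice. S.C. mouse 1 was at 162 CPM and S.C. mouse 2 at 33.0 CPM. Klf2 was thus higher in S.C. mouse 1 than in S.C. mouse 2, by 4.91-fold (exact binomial 95% interval 4.44 to 5.44), the reverse of Nr4a2, Egr1 and Egr2. Without I.P. mouse 1 its log2 fold change by I.P. turned from 1.13 (SE 1.09) to -0.79 (SE 0.22, edgeR unadjusted p = 0.00709, adjusted p = 0.999), which is under the 2-fold limit used for DEGs. In S.C. against DMSO mice it was 2.48 (SE 0.76, adjusted p = 0.747 by edgeR), and 0.90, under 2-fold, without S.C. mouse 1.

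Klf4, on chromosome 4 from 55527143 to 55532466, was at 3.95 and 6.76 CPM in the DMSO mice. It was at 148 CPM in I.P. mouse 1 and at 4.16, 4.03 and 8.10 CPM in I.P. mice 2 to 4. S.C. mice 1 and 2 were at 48.4 and 27.5 CPM. Its order differed from that of Nr4a1, with I.P. mouse 1 above both S.C. mice, by 3.06-fold and 5.39-fold. The log2 fold change was 2.82 (SE 0.55, adjusted p = 0.747 by edgeR) in S.C. mice. In I.P. mice it was 2.92 (SE 1.61, adjusted p = 0.98), and 0.00 (SE 0.45) without I.P. mouse 1.

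Klf6, on chromosome 13 from 5861482 to 5870394, was the most abundant of the 10 genes per kilobase of exon in every library, at a mean of 125 CPM per kilobase in the DMSO mice, against 27.2 for Ier2, 16.3 for Egr2, 9.49 for Klf2, 8.50 for Egr1, 1.99 for Nr4a1, 1.76 for Klf4 and 0.427 for Nr4a2. Its level was 641 and 460 CPM in the DMSO mice, 1382, 568.5, 520 and 855 CPM in I.P. mice 1 to 4, and 1144 and 1173 CPM in the S.C. mice. The log2 fold change in S.C. against DMSO mice was 1.08 (SE 0.32, adjusted p = 0.747 by edgeR), the smallest of the 8 genes tested. I.P. mice 2 and 3 overlapped the DMSO mice and I.P. mouse 4 did not.

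Ier2 encodes a small nuclear protein that is induced with the other early genes and lies on chromosome 8 from 84661331 to 84662852. The DMSO mice were at 48.5 and 34.4 CPM, I.P. mouse 1 at 208 CPM, and I.P. mice 2 to 4 at 41.7, 31.4 and 57.2 CPM. The S.C. mice were at 89.2 and 114 CPM, less than in I.P. mouse 1. Its log2 fold change in S.C. against DMSO mice was 1.30 (SE 0.36, adjusted p = 0.747 by edgeR).

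Of the 10 genes, 8 passed the filter on low counts in each comparison. DEGs were called at an unadjusted P under 0.05 and at least 2-fold, the criterion in the methods. By I.P., 0 of the 8 were DEGs against DMSO mice in either direction, where 1.53% of the 12174 genes tested were higher and 0.468% lower, and 0 of 8 had all 4 I.P. mice above both DMSO mice, where 7.29% of genes did. Their log2 fold changes ran from 0.32 to 2.92 with a median of 1.18, beside 0.02 over all genes, and the edgeR adjusted p was 0.98 for each. None of the 8 had an unadjusted P under 0.05 by the quasi-likelihood test, while edgeR's likelihood ratio test called 3 (2.21% of genes were called higher). DESeq2 called 1, Nr4a2, of the 5 genes for which it gave a p (2.24% of genes), and gave none for Nr4a1, Klf2 and Klf4. Of the 12174 genes, 0 had an adjusted p under 0.05 by the quasi-likelihood test, 418 had an unadjusted P under 0.05, and 19 passed the adjusted threshold by DESeq2 and 10 by the likelihood ratio test.

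In S.C. against DMSO mice 8 of 8 were DEGs, all higher, where 2.29% of the 11680 genes tested were higher and 2.77% lower. Both S.C. mice were above both DMSO mice for 8 of 8, where 16.0% of genes were. The median log2 fold change was 2.52, beside 0.02 over all genes. The genes were chosen on this contrast, so these counts carry no test. By the quasi-likelihood test 0 of the 11680 genes had an adjusted p under 0.05, 632 had an unadjusted P under 0.05, and 107 passed by DESeq2 and 179 by the likelihood ratio test.

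In S.C. against I.P. mice 1 of 8 was a DEG, Egr2, with a log2 fold change of 1.42 (SE 0.52, adjusted p = 0.492 by edgeR), where 2.41% of the 12206 genes tested were higher. Nr4a1 alone had both S.C. mice above all 4 I.P. mice, where 7.46% of genes did, and its log2 fold change was 2.49 (SE 1.2, adjusted p = 0.621). Klf4 was at -0.10 (SE 1.39). The 2 S.C. mice also serve in the comparison with DMSO, so these contrasts share libraries.

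The I.P. values rested largely on I.P. mouse 1. Without it, 0 of 8 were DEGs in I.P. against DMSO mice (1.14% of genes were higher), and the median log2 fold change was 0.08. Against I.P. mice 2 to 4, the S.C. mice were higher for 7 of 8 as DEGs (3.12% of genes), with a median of 2.69. The log2 fold change was then 4.90 for Nr4a1 (SE 0.50, adjusted p = 0.0524 by edgeR), 3.30 (SE 0.62) for Klf2 and 2.85 (SE 0.47) for Klf4, while Klf6, at 0.88 (SE 0.26), was under 2-fold. The genes were chosen with both S.C. mice and I.P. mouse 1 known to be high. Values from fits that leave out that I.P. mouse are therefore a description and carry no test.

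**Figure D3:**
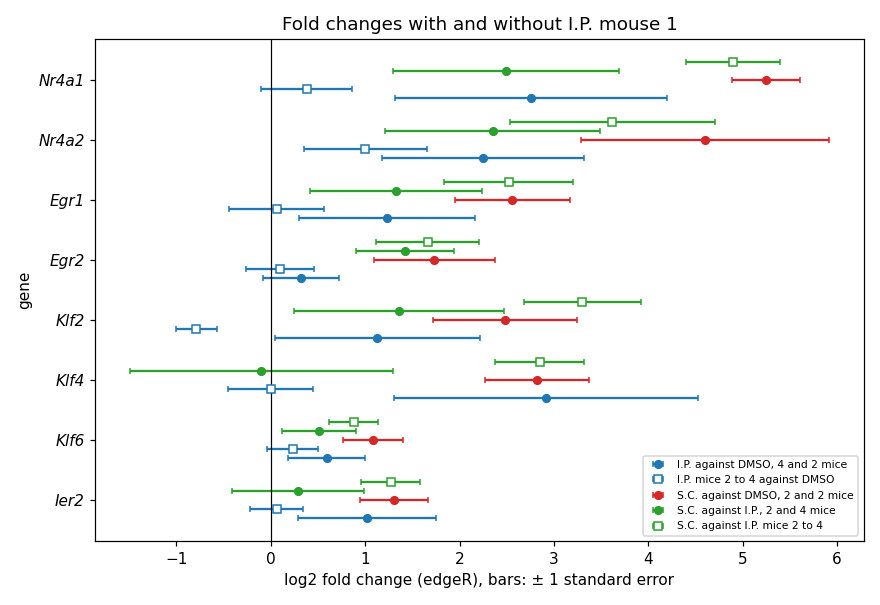
Log2 fold changes (edgeR) of the 8 genes tested, with bars of 1 standard error, for the 3 comparisons (filled) and for those with I.P. mice without I.P. mouse 1 (open). The open blue squares of 7 genes lie at or above 0.00, with Nr4a2 the highest, and that of Klf2 at -0.79, and the S.C. values (red) lie between 1.08 and 5.25.

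The 3 mice with high levels did not share 1 profile. I.P. mouse 1 was at least 2-fold above the DMSO mean for 7 of the 8 genes (9.77% of the 9325 expressed genes), S.C. mouse 1 for 7 of 8 (7.25%) and S.C. mouse 2 for 7 of 8 (8.08%). All 3 mice were so for 6 of 8, where 1.31% of genes were. The exceptions were Egr2 in I.P. mouse 1 and S.C. mouse 1, and Klf2 in S.C. mouse 2. Over the DMSO mean, I.P. mouse 1 was highest for Klf4 (27.6-fold), Nr4a1 (23.4-fold) and Nr4a2 (13.2-fold). S.C. mouse 1 was highest for Nr4a1 (36.95-fold), Klf2 (9.26-fold) and Klf4 (9.04-fold), and S.C. mouse 2 for Nr4a2 (45.8-fold), Nr4a1 (38.9-fold) and Egr1 (8.91-fold).

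Across all 8 mice, the highest library was I.P. mouse 1 for Klf4, Klf6 and Ier2, S.C. mouse 1 for Klf2, and S.C. mouse 2 for Nr4a1, Nr4a2, Egr1 and Egr2. I.P. mouse 1 was the highest I.P. mouse for all 8, as it was for 33.4% of the 9325 genes. Its log2 CPM exceeded the mean of I.P. mice 2 to 4 by 4.81 for Klf4, 4.31 for Nr4a1 and 3.59 for Klf2, gaps that 0.0751%, 0.0965% and 0.15% of genes equal or pass, and by 0.82 for Egr2 (10.1% of genes). I.P. mouse 4 was the next highest I.P. mouse for 8 of 8, at 15.7 CPM of Nr4a1 and 855 CPM of Klf6, and was at least 2-fold above the DMSO mean for 2 of the 8, as it was for 4.69% of expressed genes.

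**Figure D4:**
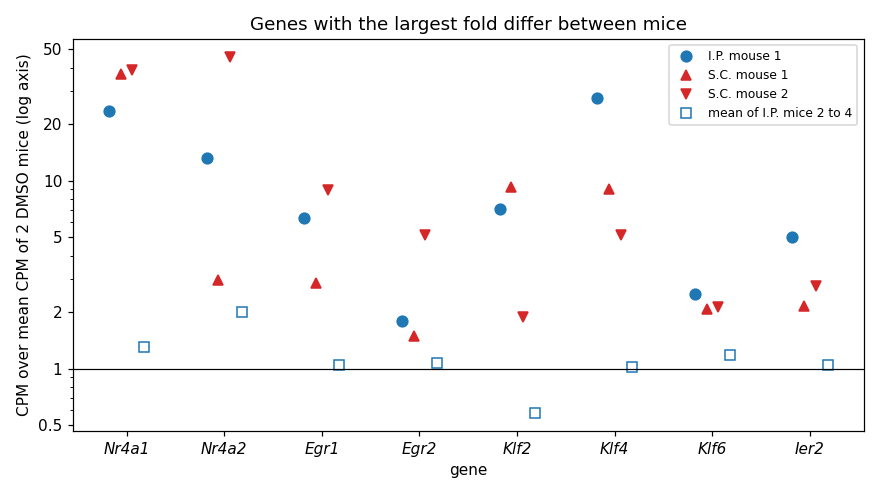
CPM of each gene over the mean of the 2 DMSO mice (log axis) in I.P. mouse 1, in each S.C. mouse, and as the mean of I.P. mice 2 to 4 (open squares). The line marks equal levels. Nr4a2 and Klf2 separate the 2 S.C. mice in opposite directions, and the open squares lie between 0.581 and 2.01.

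The closeness of 2 genes was measured as the root mean square difference of their centred log2 CPM over the 8 libraries, with no test. Klf6 and Ier2 were closest, at 0.38, followed by Egr2 and Klf6 at 0.53. Klf2 and Klf4 differed by 0.75, Nr4a1 and Nr4a2 by 1.40, and Nr4a1 and Klf6 by 1.88, the widest pair. The measure is not scaled, so it also reads the size of each gene's change. Nr4a1 and Klf6 were both highest in I.P. mouse 1 and the S.C. mice, but their S.C. log2 fold changes were 5.25 and 1.08. The mean log2 CPM of the 8 genes was 4.59 and 4.33 in the DMSO mice, 7.34, 4.25, 4.10 and 5.16 in I.P. mice 1 to 4, and 6.64 and 7.23 in the S.C. mice.

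Among the 9317 other expressed genes, those nearest to that mean profile were Fosl2 (0.27), Junb (0.28), Btg2 (0.29), Nfkbid (0.29), Rgcc (0.34), Nfkbia (0.36), Cd14 (0.38) and Fos (0.40). Fosl2, Junb and Fos encode subunits of AP-1, Btg2 an antiproliferative factor, Nfkbid and Nfkbia IκB family proteins, and Cd14 the lipopolysaccharide coreceptor. Junb was at 298 and 141 CPM in the DMSO mice, 1577, 156, 160 and 246 CPM in I.P. mice 1 to 4, and 1082 and 1466 CPM in the S.C. mice. Nfkbia was at 101 and 109, then 967, 85.8, 157 and 155, and 538 and 608 CPM in the same order. The early genes were chosen with I.P. mouse 1 and the S.C. mice known to be high, so likeness over these 8 libraries is a description.

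**Figure D5:**
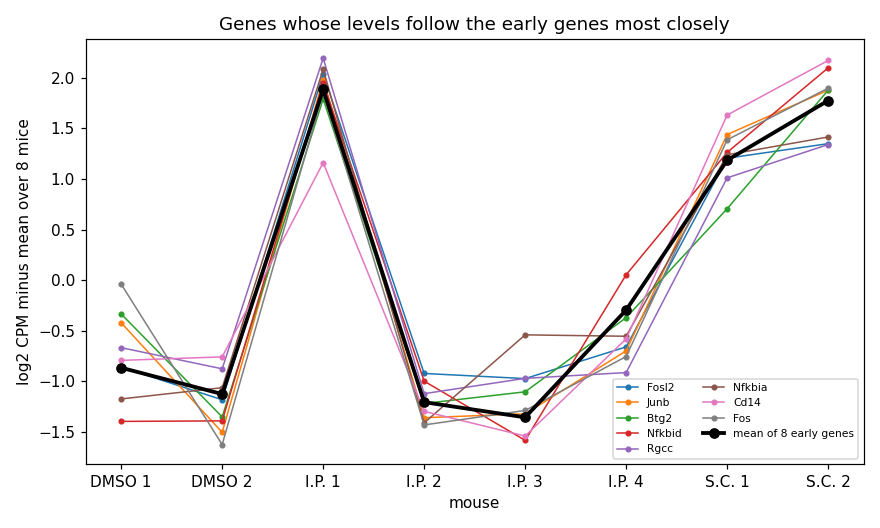
Log2 CPM minus its mean over the 8 mice, for the mean of the 8 early genes (black) and for the 8 other genes nearest to it (thin lines). The thin lines peak with the black line in I.P. mouse 1 and the S.C. mice, with Cd14 lower in I.P. mouse 1.

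The list of other immediate early genes (AP-1 subunits, dual specificity phosphatases and similar genes) held 34 genes. In S.C. against DMSO mice 23 of the 33 tested were DEGs that were higher (2.29% of all genes) and 1, Dusp6, lower (2.77%). The median log2 fold change of the 33 was 1.95. The smallest p belonged to Dusp2 (3.87, SE 0.54, adjusted p = 0.563 by edgeR), Fosb (4.90, SE 0.69, adjusted p = 0.563) and Zfp36 (1.98, SE 0.30, adjusted p = 0.652). Dusp2 and Dusp6 encode phosphatases of MAP kinases, and Zfp36 the mRNA decay factor tristetraprolin. Dusp6 was at 228 and 294 CPM in the DMSO mice, at 80.2 CPM in I.P. mouse 1, at 299, 151 and 202 CPM in I.P. mice 2 to 4, and at 115 and 64.4 CPM in the S.C. mice, so the same 3 mice were its lowest. By I.P., 2 of 34 were DEGs, both higher (1.53% of all genes), with a median of 0.93. The 2 were Sgk1 (1.08, SE 0.27, adjusted p = 0.98 by edgeR) and Gadd45b (1.83, SE 0.61, adjusted p = 0.98). Rgs1 was next by p, at 0.99 (SE 0.31). Sgk1 did not follow I.P. mouse 1. It was at 183 and 136 CPM in the DMSO mice, 320.5, 319, 273 and 449 CPM in the I.P. mice, and 457.5 and 822 CPM in the S.C. mice. Of the 32 expressed genes of this list, 24 were at least 2-fold above the DMSO mean in I.P. mouse 1 (9.77% of all expressed genes). The number was 22 in S.C. mouse 1 (7.25%), 24 in S.C. mouse 2 (8.08%) and 20 in all 3 (1.31%). It was 0 and 1 in I.P. mice 2 and 3, and 9 in I.P. mouse 4 (4.69%).

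The other EGR, NAB, KLF and IER genes held 1 DEG in each comparison with DMSO mice and 0 of 14 in S.C. against I.P. mice. Against DMSO mice, 2.29% of all genes were higher and 2.77% lower by S.C., and 1.53% higher and 0.468% lower by I.P. By S.C., 1 of the 13 tested was a DEG, Ier5, which was higher (1.13, SE 0.37, adjusted p = 0.806 by edgeR), with a median of 0.21. Klf10 (-0.58, SE 0.35) and Nab2, a corepressor of EGR factors (-0.81, SE 0.52), followed by p and were not DEGs. By I.P., 1 of 14 was, Klf9 (3.17, SE 1.01, adjusted p = 0.98 by edgeR), with a median of 0.33. Klf9 is a KLF gene that glucocorticoids induce. It was at 1.91 and 6.47 CPM in the DMSO mice, 94.4, 10.3, 14.1 and 34.1 CPM in I.P. mice 1 to 4, and 11.5 and 0.289 CPM in the S.C. mice, so that all 4 I.P. mice were above both DMSO mice and S.C. mouse 2 was below both. Ier5 (1.05, SE 0.46) and Klf15 (1.40, SE 0.71) came next by p in I.P. mice. Egr4 had 0 counts in all 8 libraries.

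The kinases and factors upstream of these genes were counted as mRNAs only. By S.C., 1 of 28 was a DEG (2.29% of genes were higher and 2.77% lower), Crem, a factor of the CREB family, which was higher (1.33, SE 0.49, adjusted p = 0.869 by edgeR), with a median of 0.12. Map2k5 (0.91, SE 0.46) and Mapk3 (0.83, SE 0.43) came next. By I.P., 0 of 28 were (1.53% of genes were higher and 0.468% lower) and 1 had an unadjusted P under 0.05, with a median of 0.19. The smallest p belonged to Mef2c (-0.85, SE 0.23, adjusted p = 0.98 by edgeR), Rps6ka5 (-0.73) and Mkl1 (0.69). Of the partners and targets, 0 of 8 were DEGs in I.P. mice, beside the same shares of all genes (1 had an unadjusted P under 0.05), with a median of 0.28. Nab2 is also in this list. Rxrb, a partner receptor that forms heterodimers with nuclear receptors of this class, was at 0.91 (SE 0.37) in S.C. and 0.88 (SE 0.36) in I.P. mice, and Rxra (0.66) and Cdkn1a (0.45) followed it in I.P. mice.

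The heat shock genes, read as a sum, ordered the mice differently. Their sum was 4160 and 3250 CPM in the DMSO mice, 2410, 3120, 2600 and 2960 CPM in I.P. mice 1 to 4, and 4260 and 5190 CPM in the S.C. mice. The sum was thus lowest in I.P. mouse 1, whose early genes were high, but it was mostly Hspa8 (1466 CPM in that mouse). Single genes differed. Dnajb1 was at its highest of the 8 mice in I.P. mouse 1 (92.85 CPM). I.P. mouse 3 was lower than I.P. mouse 1 for Hspa1a (60.5 against 113 CPM) and Hspa1b (44.0 against 57.5 CPM). By I.P., 2 of the 10 heat shock genes were DEGs, both lower (0.468% of all genes). The 2 were Hspa1b (-1.91, SE 0.50, adjusted p = 0.98 by edgeR) and Hspa1a (-1.25, SE 0.40, adjusted p = 0.98). They are near-identical genes whose reads the counting could split between them. Hsph1 was next at -0.79 (SE 0.43). The median was -0.37. By S.C., 0 of 10 were DEGs (2.29% of genes were higher and 2.77% lower) and 1 had an unadjusted P under 0.05, with a median of 0.54. Dnajb1 (0.91), Dnaja1 (0.67) and Hspb1 (0.82) had the smallest p.

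Markers of other cell types were read beside these levels, since in bulk libraries fewer cells of a type and less RNA per cell cannot be told apart. Summed neutrophil markers (9 of 10 found) were 125 and 135 CPM in the DMSO mice, 158, 99.3, 108 and 86.6 CPM in the I.P. mice and 226 and 398 CPM in the S.C. mice. In S.C. against DMSO mice 5 of the 8 tested were DEGs that were higher, where 2.29% of all genes were, namely Ngp, Ltf, S100a9, Camp and S100a8. Mpo, Cxcr2 and Csf3r were not, and Cxcr2 alone was 167 CPM in S.C. mouse 1. Monocyte markers summed to 70.0 and 90.9, to between 10.5 and 35.4, and to 95.6 and 126 CPM in DMSO, I.P. and S.C. mice. T or NK cell markers (9 of 10 found) were at 40.9 and 22.2 CPM in the S.C. mice and at most 16.6 CPM elsewhere, B cell markers at 29.2 and 25.3 against at most 20.6 CPM, and dendritic cell markers at 29.9 and 9.32 against at most 7.76 CPM. Melanoma markers reached 2900 CPM in S.C. mouse 1 and 1710 CPM in I.P. mouse 4, and were 691 CPM in S.C. mouse 2 and 516 CPM in I.P. mouse 1. Endothelial markers were at most 10.7 CPM and fibroblast markers at most 1.26 CPM. The lymphoid and neutrophil sums were thus highest in the S.C. mice, but single markers went other ways. Cd3d was at 0 and 0.145 CPM in S.C. mice 1 and 2, against 1.16 and 0.462 CPM in the DMSO mice. Gzmb was highest in I.P. mouse 3 (10.25 CPM). Csf3r was lower in S.C. mouse 1 (28.4 CPM) than in DMSO mouse 1 (55.7 CPM). In I.P. mouse 1 the neutrophil sum was the highest outside the S.C. mice and the macrophage sum the highest of all 8. That macrophage sum was mostly C1qa, C1qb and C1qc (1848, 8126 and 4767 CPM), while Ptprc, at 152 CPM, was the lowest of the 8 mice. The part of other cells in the levels of the 10 genes was not tested.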

How the data were processed

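TAMs of 8 mice were sequenced as 1 library per mouse, and groups follow the agent and route named in the labels. The authors deposited whole-number counts per gene symbol without normalization, made, by the methods, with bowtie2 2.2.3 and RSEM 1.2.15 on mm10. The submitters' processing notes name TopHat2 and edgeR, and whether RSEM estimates were rounded was not given in the sources used here. All columns were mapped to a sample.

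The software was edgeR 4.0.16, DESeq2 1.42.0 and limma 3.58.1 under R 4.3.3. Genes were kept by filterByExpr (minimum count 10, minimum total 15), scaled by TMM and tested, two-sided, with the quasi-likelihood method on the libraries of both groups, with Benjamini-Hochberg adjustment over all genes tested. The standard error (SE) is the log2 fold change divided by the square root of F. Log2 CPM used a prior count of 2. The procedure was tested on simulated data. Libraries of a group are separate mice. With 14127506 to 17577466 counts per mouse, 3 counts are 0.168 to 0.217 CPM.

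The 10 genes and all lists were chosen with earlier results of these data known. Of each other list, the 3 genes with the smallest p against DMSO were named, and the 8 genes nearest to the mean profile. Dusp6, Egr4 and the counts of markers were named after their values were seen. The S.C. count of the partners and targets is not reported here. Gene positions are from GENCODE vM21 (GRCm38). Motifs were searched on both strands. Alternatives were no gene filter, 1 CPM in 2 libraries, RLE factors, library size only, DESeq2, the likelihood ratio test, 1 fit of all 3 groups, a replicate block and leaving out each mouse.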

Additional observations from a re-analysis of the deposited data

Results flagged for a closer look

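In 5 of the 10 genes, the gap between I.P. mouse 1 and the next I.P. mouse was larger than Dixon's 95% limit for 4 samples, at 163.2 CPM of Nr4a1, 1.517 CPM of Nr4a3, 123.8 CPM of Klf2, 148 CPM of Klf4 and 207.8 CPM of Ier2. The gap took between 0.853 and 0.987 of the whole range. The genes were chosen in part for their level in this mouse, so these gaps are a description and carry no test. Chance flags about 1 in 20 groups, while 8.19% of the 9325 expressed genes had a high or low value of this kind among the I.P. mice, and for 3.79% it was a high value in I.P. mouse 1.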

How the results depend on the processing

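In S.C. against DMSO mice each of the 8 genes tested kept its sign under all 13 alternatives, with Nr4a1 between 5.08 and 5.41 on the log2 scale. The number that were DEGs (8) was 5 with all 3 groups in 1 fit, 6 with library size only (Egr2 and Klf6 were then no DEGs), and 5 to 8 with 1 mouse left out, the 5 being without DMSO mouse 2. Their median log2 fold change (2.52) ran from 1.52, without S.C. mouse 2, to 2.47 with 1 mouse left out. In I.P. against DMSO mice the number (0) was 2 without the gene filter, 3 by the likelihood ratio test, 1 by DESeq2, 2 with the replicate block, 2 with I.P. mice 1 and 2 only, and 0 to 2 with 1 mouse left out. In S.C. against I.P. mice the number (1) was 3 without the gene filter, 3 by the likelihood ratio test, 2 by DESeq2, 0 with I.P. mice 1 and 2 only, and 0 to 7 with 1 mouse left out, the 7 being without I.P. mouse 1. DESeq2 gave no p for Nr4a1, Klf2 and Klf4 in both comparisons with I.P. mice, so its counts are out of 5 genes. Klf2 and Klf4 changed sign or came to 0.00 in I.P. against DMSO mice without I.P. mouse 1. In S.C. against I.P. mice Nr4a2, Klf2, Klf4 and Ier2 changed sign in at least 1 alternative. The cause was not tested.

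Same-numbered mice did not deviate together (correlations between -0.187 and 0.17), and the numbers were not used to pair the mice. With 2 mice in a group their deviations mirror each other, so these correlations cannot exclude a pairing. With the replicate block, 8, 2 and 1 of the 8 genes were DEGs in S.C. against DMSO, I.P. against DMSO and S.C. against I.P. mice. With the numbers crossed, an alternative chosen after seeing the data like that with I.P. mice 1 and 2 only, 8 of 8 and 475 genes in all were DEGs in S.C. against DMSO mice. Fits that leave 1 mouse in a group assume that it varies like the other group. With 2 mice in a group, a member's spread within the group is poorly known.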
